A study of Mus musculus with 721 samples.

Results

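Insulin-only cells are cells of the embryonic mouse pancreas that held insulin transcript and little transcript of glucagon, ghrelin and somatostatin. They were 51 of the 658 cells kept for analysis, or 7.75% (95% exact Clopper-Pearson interval 5.83 to 10.1%), out of 721 cells in all. A cell was kept when its labels gave at least 100000 fragments and when at least 1500 genes reached 1 FPKM (fragments per kilobase of transcript, scaled by the authors). It counted as insulin-only when Ins1 or Ins2, the mouse insulin genes, reached 100 FPKM while Gcg (glucagon), Ghrl (ghrelin) and Sst (somatostatin) each stayed under 100 FPKM. The cells were thus chosen by the measured values of those 5 genes, which are given as a description with no test.

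The cells came from the pancreas of Neurogenin 3-eGFP mouse embryos, in which green fluorescent protein reports the endocrine progenitor factor Neurog3, collected at E11.5, E12.5, E13.5, E14.5 and E15.5. All were sorted as eGFP-positive, with no other treatment or genotype named, and were made into cDNA with SMART-seq, a full-length single-cell method, and Nextera XT libraries. Every class of cells described here, insulin-only or not, shares that reporter and that sort. The labels name no animals and do not say whether the runs of a day drew on the same embryos. The unit of the tests below is therefore the set, the cells of 1 day in 1 sequencing run. Because few sets entered each test, their spread was estimated in large part from all genes tested together. A small p-value thus does not show that the sets agree on a gene. References were the other kept cells of the same set (607 in all). Among them were 44 glucagon-only cells (Gcg at 100 FPKM or more, the other hormone genes under 100), 66 Fev precursors (Fev at 10 FPKM or more, Neurog3 under 10, every hormone gene under 100) and 166 Neurog3 progenitors (Neurog3 at 10 FPKM or more, Fev under 10, every hormone gene under 100). The other kept cells also include 23 cells in which an insulin gene and Gcg, Ghrl or Sst reached 100 FPKM. Hormone genes in these definitions are Ins1, Ins2, Gcg, Ghrl and Sst alone.

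As background, endocrine cells of the pancreas arise from duct-like epithelium in which Neurog3 is switched on briefly. Those progenitors pass through a stage marked by the transcription factor Fev and then turn on a hormone gene. A beta cell makes proinsulin in the endoplasmic reticulum, cuts it with prohormone convertases and stores it in zinc-rich granules together with islet amyloid polypeptide, the product of Iapp. Adult mouse beta cells take up glucose through Slc2a2 (the transporter GLUT2) and depend on the transcription factors Pdx1, Nkx6-1 and Mafa.

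Promoters of Ins1 and Iapp are shown because transcripts of both genes ranked with Ins2 among the insulin-only cells. The lines give the 250 bases before the start of each gene on the plus strand, from RefSeq on GRCm38.p6, Ins1 at chr19:52264047-52264296 and Iapp at chr6:142298175-142298424. Capitals mark TAAT or its reverse complement ATTA, the core bound by homeodomain factors such as Pdx1 and Nkx6-1, and CATCTG or its reverse complement CAGATG, a form of the E-box bound by Neurod1.
Ins1: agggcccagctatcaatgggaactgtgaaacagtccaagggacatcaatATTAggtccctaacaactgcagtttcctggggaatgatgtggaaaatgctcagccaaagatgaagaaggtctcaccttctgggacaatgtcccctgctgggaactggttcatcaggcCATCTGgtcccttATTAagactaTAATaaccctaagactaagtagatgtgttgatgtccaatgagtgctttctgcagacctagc
Iapp: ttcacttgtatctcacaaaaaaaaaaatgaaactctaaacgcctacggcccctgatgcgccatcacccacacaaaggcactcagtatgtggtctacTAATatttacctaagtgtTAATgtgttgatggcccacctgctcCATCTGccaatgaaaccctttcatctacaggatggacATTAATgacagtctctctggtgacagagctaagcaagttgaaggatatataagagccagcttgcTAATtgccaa
The Ins1 window holds TAAT in either orientation 3 times and CATCTG 1 time, and the Iapp window holds them 5 times and 1 time, with an ATTA and a TAAT that overlap. TGCTGA, the core of the Maf element, and its reverse complement TCAGCA were searched on both strands too and are not in either window. Of 32851 RefSeq promoters of the same length, 54.9% hold TAAT, 14.4% hold CATCTG and 16.1% hold TGCTGA in either orientation. Promoters with as many copies, or with TAAT and CATCTG together, were not counted, so whether either window stands out was not tested.

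Depth and scale bear on every value below. Insulin-only cells had 113328 to 1.49e+06 fragments (median 5.93e+05), against a median of 5.86e+05 in the other kept cells, and 3799 to 7204 genes at 1 FPKM (median 5974), against a median of 5545. The deposited FPKM values were not scaled to each cell's own depth. Within every set the summed FPKM of a cell ranked with its fragments (Spearman's rho 0.952 to 0.989 over the cells of a set), and in E14.5 run 2 the smallest value of Neurog3, 1.29 FPKM, was shared by 10 cells of 156808 to 1.07e+06 fragments. The number of called genes in each comparison is therefore also given after scaling every cell to its fragments, an alternative chosen after the data were seen, as are the named calls that it ended. Under that scaling 59 cells met the rule and 49 of them were among the 51. Entries for predicted genes took a median of 36.6 to 45.1% of FPKM in the run 2 sets and 7.64 to 20.9% in the run 1 sets, in insulin-only and other kept cells alike. Insulin transcripts took a median of 1.49% and up to 32.2% of all FPKM in an insulin-only cell.

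The label of early beta cells was set against the other beta cell markers. Of the 51 insulin-only cells, 43 had Iapp at 10 FPKM or more, 38 had Nkx6-1 and 27 had Slc2a2. All of these markers reached 10 FPKM in 23 cells and none of them in 2 cells. Mafa, which marks mature beta cells, reached 10 FPKM in 0 of 51 cells, which allows a share of up to 6.98% (upper limit of the exact 95% interval), and 1 FPKM in 1 cell. Most of these cells thus held Iapp and Nkx6-1 and about as many had as lacked Slc2a2. Neither Iapp nor Nkx6-1 is held by these cells alone, since Nkx6-1 reached 10 FPKM in 68.1% of Neurog3 progenitors and Iapp in 61.4% of glucagon-only cells. Markers of leukocytes, endothelium, mesenchyme, neural crest and neurons, and erythroid cells never reached 10 FPKM for 3 or more markers of a list in an insulin-only cell. Of the leukocyte list, C1qa, the gene of a complement subunit, reached 10 FPKM in 18 of 51 insulin-only cells, against 59 of 607 other kept cells, while C1qb, C1qc, Tyrobp and Lyz2 did so in 0 of 51. The summed level of that list was 0 to 312 FPKM (median 4.82) in insulin-only cells, against 0 to 26323 FPKM (median 0) in other kept cells, and its part in the results was not tested. Acinar markers reached 10 FPKM for 3 or more markers in 1 of 51 insulin-only cells, against 84 of 607 other kept cells. The list of duct or trunk markers, which includes the epithelial keratins Krt8 and Krt18, reached 3 markers in 76.5% of insulin-only cells, against 75.5% of other kept cells, with a median summed level of 1050 and 1191 FPKM.

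Insulin-only cells took a larger share of the kept cells on later days. None was found among 73 cells at E11.5, which allows a share of up to 4.93% (upper limit of the exact 95% interval), and none among 78 cells in E13.5 run 2, which allows up to 4.62%. There were 2 of 90 cells at E12.5 (2.22%), 4 of 68 in E13.5 run 1 (5.88%) and 4 of 94 in E14.5 run 1 (4.26%, interval 1.17 to 10.5%). E14.5 run 2 held 10 of 85 (11.8%, interval 5.79 to 20.6%), E15.5 run 1 held 12 of 88 (13.6%, interval 7.25 to 22.6%) and E15.5 run 2 held 19 of 82 (23.2%, interval 14.6 to 33.8%). The intervals of the E14.5 and E15.5 sets overlap, and they cover counting error only. Xist was detected in the insulin-only cells of E13.5 and in 13 of the 14 of E14.5, and Y-linked transcripts in all those of E12.5 and E15.5, so day and the sex of the embryos cannot be told apart.

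Ins2 was the main insulin transcript. It lies within the authors' locus chr7:142678656-142699510 (mm10), which spans more than the gene, and Ins1 at chr19:52264323-52265456. Ins2 exceeded Ins1 in 48 of 51 cells. It reached 100 FPKM without Ins1 in 26 cells, Ins1 did so without Ins2 in 2 cells, and both did in 23 cells. Ins1 was listed at 0 in 12 cells and Ins2 in 2 cells. Ins2 spanned more than 3 orders of magnitude, with 16 cells under 1000 FPKM and 14 cells at 100000 FPKM or more. The hormone transcripts that the rule limited were mostly absent, with Gcg listed at 0 in 37 cells, Ghrl in 46 and Sst in 49. Other peptide genes were not limited by the rule, and Pyy reached 100 FPKM in 40 of 51 cells, Gip in 21 and Ppy in 9.

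Near the threshold, the lowest values of the higher insulin gene inside the rule were 107, 116 and 141 FPKM, and the closest outside it were 91.8, 90.9 and 86.3 FPKM. For Gcg, Ghrl and Sst the highest values inside were 16.6, 15.7 and 14.45 FPKM, while the closest cells outside had 151, 184 and 243 FPKM. The insulin limit thus cut through a continuous range and the limit on Gcg, Ghrl and Sst fell in a gap.

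The 6 cells of E12.5 and E13.5 had low insulin and no Iapp. Ins2 was 116 and 175 FPKM in the 2 cells of E12.5 and 141, 149, 1004 and 1479 FPKM in the 4 cells of E13.5, and Ins1, Iapp and Slc2a2 were listed at 0 in all 6. Pax4, a transcription factor needed for beta cell formation in the mouse, was 146 and 441 FPKM at E12.5 and 755, 1797, 4595 and 5942 FPKM at E13.5. Neurog3 reached 100 FPKM in 5 of these 6 cells. Progenitor transcripts were thus present together with insulin in the earliest members.

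At E14.5 and E15.5 the cells ranged over the whole span. Ins2 was 153, 374, 7138 and 117259 FPKM in the 4 cells of E14.5 run 1. Its lowest, median and highest values were 0, 3026 and 61797 FPKM in E14.5 run 2, 175, 89518 and 371762 FPKM in E15.5 run 1, and 107, 15404 and 888740 FPKM in E15.5 run 2. Low and high cells occurred in each of these sets, and the sets overlapped widely.

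**Figure D1:**
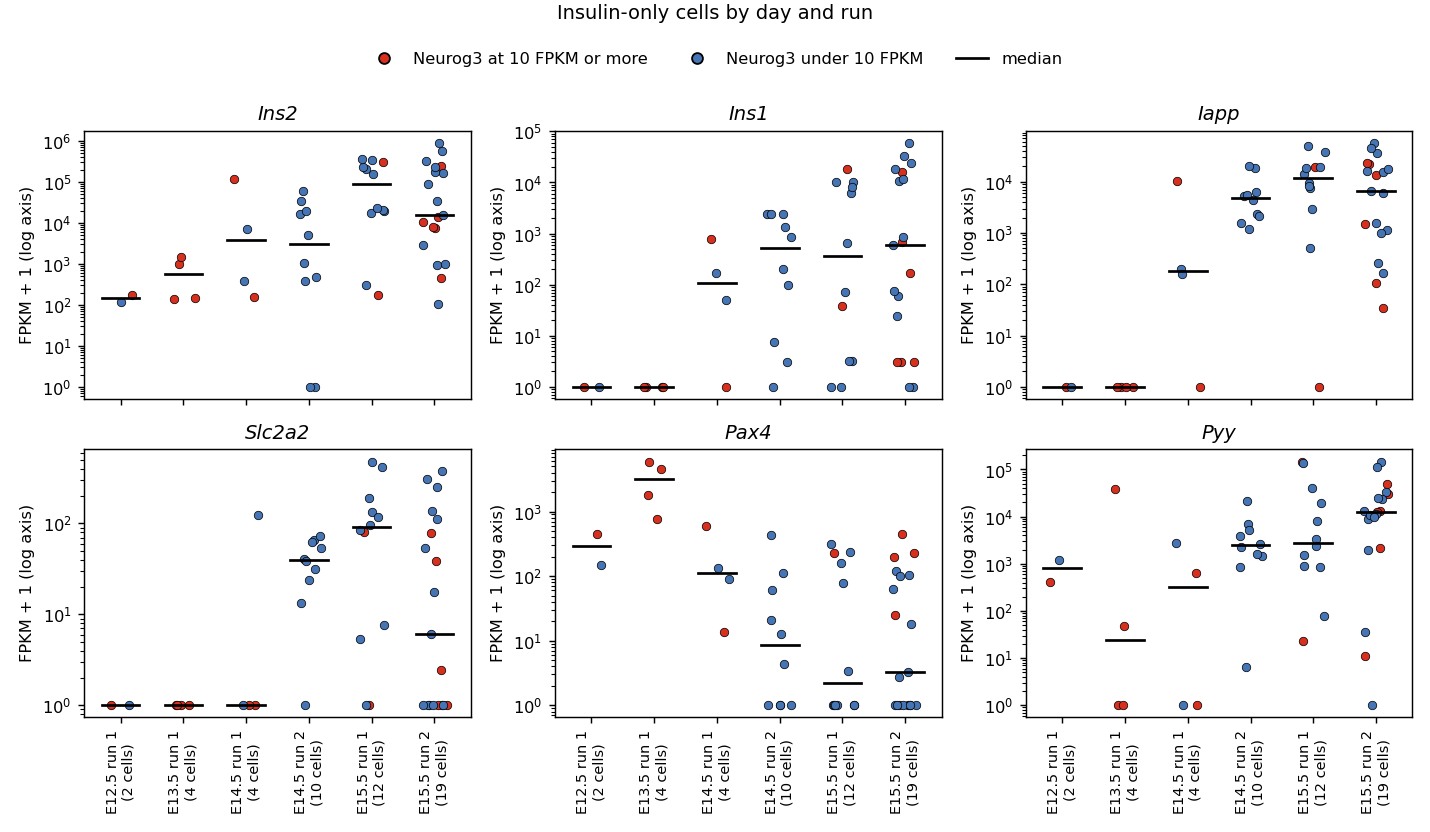
Each point is 1 insulin-only cell, plotted as FPKM + 1 on a log axis by day and run for Ins2, Ins1, Iapp, Slc2a2, Pax4 and Pyy, red where Neurog3 was at 10 FPKM or more and blue where it was lower, with a bar at the median. The 6 cells of E12.5 and E13.5 sit at 0 for Ins1, Iapp and Slc2a2, and the later sets spread over several orders of magnitude in Ins2.

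Within the 51 cells, Ins2 ranked with genes of the secretory route. Spearman's rho with Ins2 was 0.76 for Iapp, 0.73 for Hspa5, the chaperone BiP of the endoplasmic reticulum, and 0.71 for Sdf2l1, a partner of that chaperone. After scaling to depth the values were 0.73, 0.74 and 0.69. For Gip it was 0.51, for Slc2a2 0.50, for Nkx6-1 0.30, for Pax4 -0.32 and for Neurog3 -0.38. Among the 31 cells of E15.5 the values were 0.79 for Hspa5, 0.79 for Iapp and 0.78 for Sdf2l1. These are descriptions over cells that share embryos, runs and depth, and Ins2 itself ranked with fragments at 0.27 over the 51 cells and 0.46 over the 31 cells.

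**Figure D2:**
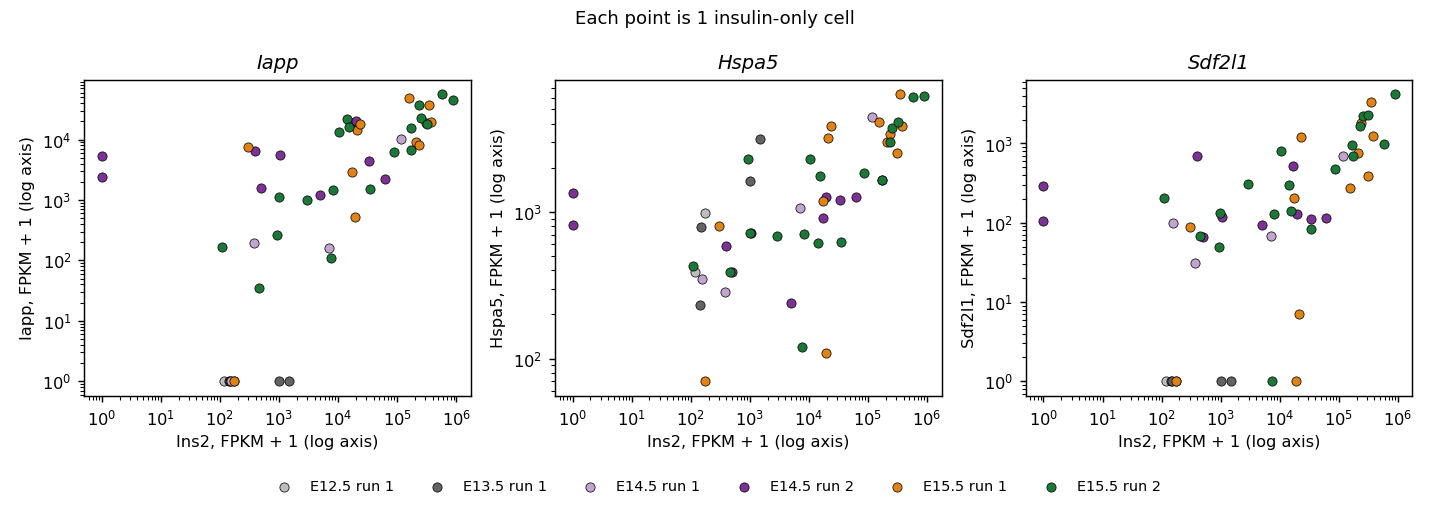
Each point is 1 insulin-only cell, with Ins2 on the x axis and Iapp, Hspa5 or Sdf2l1 on the y axis, all as FPKM + 1 on log axes and coloured by day and run. Higher Ins2 went with higher values of each gene (rho 0.76, 0.73 and 0.71 over 51 cells), and the cells listed at 0 lie on the axes' lowest value, 1.

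Neurog3 transcript at 10 FPKM or more was found in 15 of the 51 cells (29.4%), against 291 of 607 other kept cells (47.9%). It was present in 7 of the 10 insulin-only cells of the sets up to E14.5 run 1 and in 8 of the 41 cells of E14.5 run 2 and both E15.5 sets. Fev reached 10 FPKM in 18 cells, together with Neurog3 in 10 cells. The 15 cells with Neurog3 had a median of 1479 FPKM of Ins2, 33.7 of Iapp, 226 of Pax4 and 25.95 of Pcsk2, the prohormone convertase PC2. In the 36 cells without Neurog3 those medians were 19497 FPKM of Ins2, 6237 of Iapp, 2.88 of Pax4 and 432 of Pcsk2. Because Neurog3 split the cells after their values were known and the split follows the day in part, it was not tested. The eGFP transcript itself was at 10 FPKM or more in 1 of 51 insulin-only cells, against 110 of 607 other kept cells (18.1%), although all cells were sorted for the protein.

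Shares of cells at 10 FPKM or more placed the insulin-only cells beside the most alike classes. Iapp was found in 84.3% of insulin-only cells, against 61.4% of glucagon-only cells, 22.7% of Fev precursors and 7.83% of Neurog3 progenitors. Slc2a2 was found in 52.9% of insulin-only cells, against 6.82%, 1.52% and 4.22% of those classes in the same order. Sytl4, which encodes the granule docking protein granuphilin, was found in 72.5% of insulin-only cells, against 2.27%, 7.58% and 4.82%. Of the transcription factors, Nkx6-1 was found in 74.5% of insulin-only cells, against 36.4%, 57.6% and 68.1%. Pax4 was found in 56.9% of insulin-only cells, above glucagon-only cells (29.5%) and below Fev precursors (81.8%) and Neurog3 progenitors (83.7%). These shares pool days and were not tested, since cells of a set are not replicates.

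**Figure D3:**
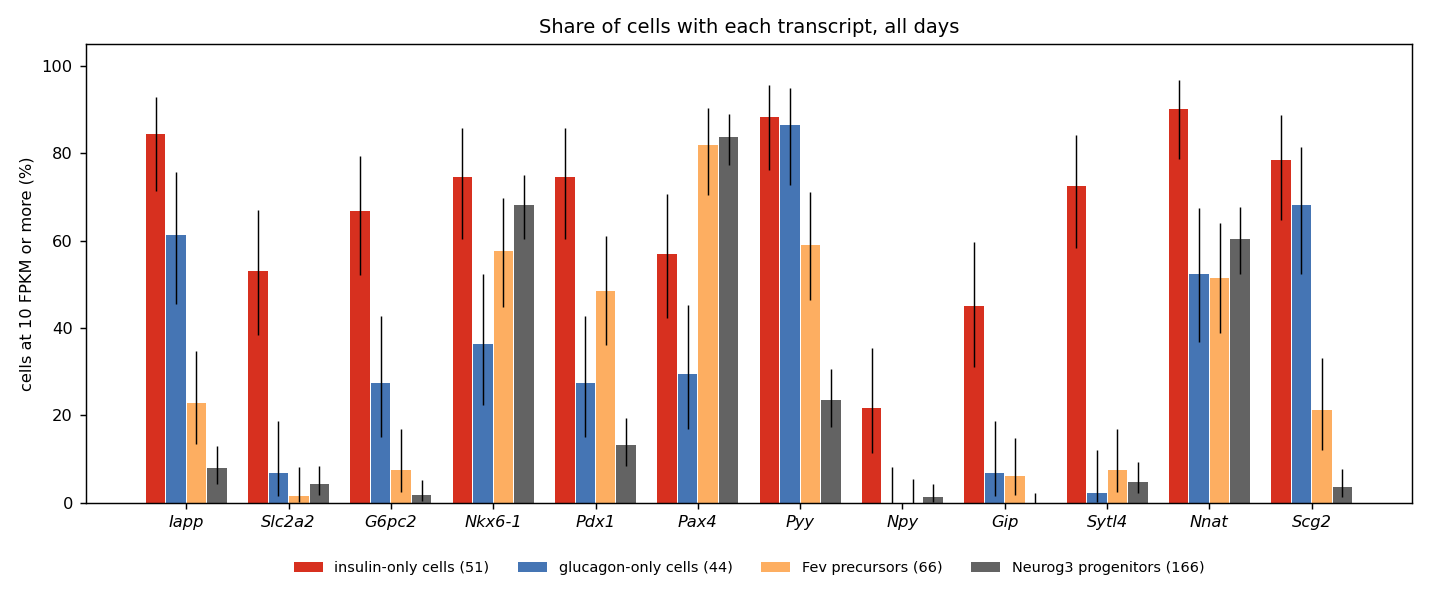
Bars give the percent of cells at 10 FPKM or more for 12 genes in insulin-only cells, glucagon-only cells, Fev precursors and Neurog3 progenitors over all days, with exact 95% intervals that cover counting error only. Sytl4, Slc2a2, Gip and Npy are found in few cells of the other classes, while Pyy is as frequent in glucagon-only cells (86.4%) as in insulin-only cells (88.2%).

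Against the other kept cells of the same set, insulin-only cells had higher transcript of the glucose transporter gene Slc2a2, of Nnat and of Sdf2l1, and lower transcript of the progenitor factor Pax4 and of Gast, the hormone gastrin. The comparison used the 3 sets with at least 5 insulin-only cells (41 insulin-only and 214 other cells), the mean FPKM per set and class, and limma with the set as a block. Of 15346 genes tested, 21 were higher (0.137%) and 22 lower (0.143%) at an adjusted p of at most 0.05. The split was 16 higher and 27 lower after scaling to depth, 30 of these 43 being among the first 43. A set mean is high when more cells hold a transcript or when each holds more, and shares and medians are given where the 2 differ.

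Slc2a2 averaged 39.3, 133 and 72.1 FPKM in insulin-only cells of E14.5 run 2, E15.5 run 1 and E15.5 run 2, against 0.855, 5.98 and 4.59 FPKM in the other kept cells of those sets. The lowest, median and highest insulin-only cells were at 0, 38.97 and 71.4 FPKM in E14.5 run 2, 0, 90.1 and 478 FPKM in E15.5 run 1, and 0, 5.10 and 374 FPKM in E15.5 run 2, where the other kept cells had a median of 0 in each set. In E15.5 run 2 only 9 of 19 insulin-only cells reached 10 FPKM, so a few high cells carried that mean. The log2 difference was 4.14 (SE 0.36, adjusted p = 0.0376, and 0.0484 after scaling to depth).

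Of the granule and prohormone list, Sytl4 and Scg2 passed. Sytl4 averaged 110, 226 and 207 FPKM in insulin-only cells of the 3 sets in that order, against 9.59, 29.6 and 10.6 FPKM in other kept cells, a log2 difference of 3.48 (SE 0.32, adjusted p = 0.0376, lost at 0.0529 after scaling to depth). Ppp1r1a, an inhibitor of protein phosphatase 1, averaged 78.8, 260 and 285 FPKM in insulin-only cells, against 3.44, 31.5 and 26.8 FPKM (log2 difference 3.51, adjusted p = 0.0376). Scg2, a granin of secretory granules, averaged 95.9, 595 and 503 FPKM, against 14.98, 153 and 127 FPKM (log2 difference 2.18, adjusted p = 0.0423, lost at 0.0623 after scaling). For each of these genes the insulin-only mean was above the other mean in all 3 sets. Of the list of 29 granule and prohormone genes, 28 were tested, 2 were called higher (Scg2 and Sytl4), 24 had a positive difference and the median was 0.74, against -0.14 over all genes tested. None of the 28 was called after scaling to depth (0 of 28).

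Nnat, an imprinted gene whose product aids the processing of preproinsulin in mouse beta cells, averaged 2130, 4891 and 6575 FPKM in insulin-only cells, against 252, 577 and 311 FPKM in other kept cells. The insulin-only cells had medians of 1436, 2617 and 2570 FPKM, against 28.9, 7.73 and 5.58 FPKM in the other kept cells, and a share of 90.2% at 10 FPKM or more, against 50.9%. The highest other kept cells reached 3808, 12231 and 12561 FPKM, so single cells of the 2 classes overlapped. The log2 difference was 3.52 (SE 0.28, adjusted p = 0.0376, and 0.0467 after scaling). Of the other 16 tested genes on the imprinted list none was called, and the list's median was -0.34.

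Gip encodes an incretin hormone known from the intestine. It averaged 471, 373 and 567 FPKM in insulin-only cells, against 6.79, 39.3 and 17.7 FPKM in other kept cells, and was found at 10 FPKM or more in 23 of 51 cells, against 3.95% of the other kept cells. The log2 difference was 4.69 (SE 0.51, adjusted p = 0.0474, lost at 0.0623 after scaling to depth).

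Of the genes for protein handling in the endoplasmic reticulum, Sdf2l1 and Sec61b passed. Sdf2l1 averaged 223, 768 and 824 FPKM in insulin-only cells, against 56.7, 85.9 and 112 FPKM (log2 difference 2.66, SE 0.27, adjusted p = 0.0423, and 0.0285 after scaling). Sec61b, a subunit of the channel through which new proteins enter that compartment, averaged 1393, 2246 and 2160 FPKM, against 725, 937 and 812 FPKM (log2 difference 1.20, SE 0.13, adjusted p = 0.0474, lost at 0.0619 after scaling). These were the 2 called of the 35 tested genes of the list for the endoplasmic reticulum and the unfolded protein response. Of the 35, 34 had a positive difference, with a median of 0.95 against -0.14 over all genes. After scaling to depth 3 were called and the median was 0.84 against -0.24.

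Other genes called higher were Frzb, a secreted Wnt antagonist (log2 difference 3.45, adjusted p = 0.0376), Hadh, a mitochondrial enzyme of fatty acid oxidation that restrains insulin release (2.40, adjusted p = 0.0376), Crot, a peroxisomal carnitine transferase (2.80, adjusted p = 0.0423), Tubb2a, a tubulin (2.23, adjusted p = 0.0474), Ociad2 (2.40, adjusted p = 0.0423) and Arhgap36 (3.57, adjusted p = 0.0474). Scaling to depth ended the calls of Hadh, Crot, Tubb2a and Arhgap36, at adjusted p of 0.0623, 0.0550, 0.0769 and 0.0661.

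Pax4 and Gast were among the named genes that were lower. Pax4 averaged 64.5, 84.2 and 68.4 FPKM in insulin-only cells, against 561, 586 and 292 FPKM in other kept cells. Its insulin-only medians were 7.65, 1.18 and 2.25 FPKM, against 203, 105.4 and 80.3 FPKM, and its log2 difference was -2.65 (SE 0.24, adjusted p = 0.0376, and 0.0467 after scaling). Gast averaged 36.9, 172 and 129 FPKM, against 639, 1627 and 1717 FPKM, a log2 difference of -3.68 (SE 0.20, adjusted p = 0.0123, and 0.0161 after scaling). The medians of Gast were 0 in the other kept cells of all 3 sets, so its means there came from a minority of cells. Glucagon-only cells are part of that reference and had far higher Gast means, given below for E14.5 run 2 and E15.5 run 2. Mdk, the growth factor midkine, averaged 206, 237 and 267 FPKM, against 1398, 1620 and 1124 FPKM (log2 difference -2.53, SE 0.19, adjusted p = 0.0343).

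Cd24a, a surface protein of epithelial progenitors, averaged 5.14, 8.37 and 25.4 FPKM in insulin-only cells, against 182, 189 and 193 FPKM (log2 difference -4.04, adjusted p = 0.0474). Id1, an inhibitor of basic helix-loop-helix factors, and Tmem171 averaged 0 in the insulin-only cells of all 3 sets, against 33.4, 32.9 and 45.5 FPKM for Id1 and 38.9, 46.4 and 36.4 FPKM for Tmem171 (adjusted p = 0.0398 and 0.0376). Habp2, an extracellular protease, averaged 0, 0.101 and 0 FPKM, against 50.7, 52.3 and 34.7 FPKM (adjusted p = 0.0376). Lower calls were also made for Tead2, a transcription factor of the Hippo pathway, Prom1, Cer1, a secreted antagonist of BMP and Nodal, Serpina1c and Smarcd2. All named lower genes kept their calls after scaling to depth.

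**Figure D4:**
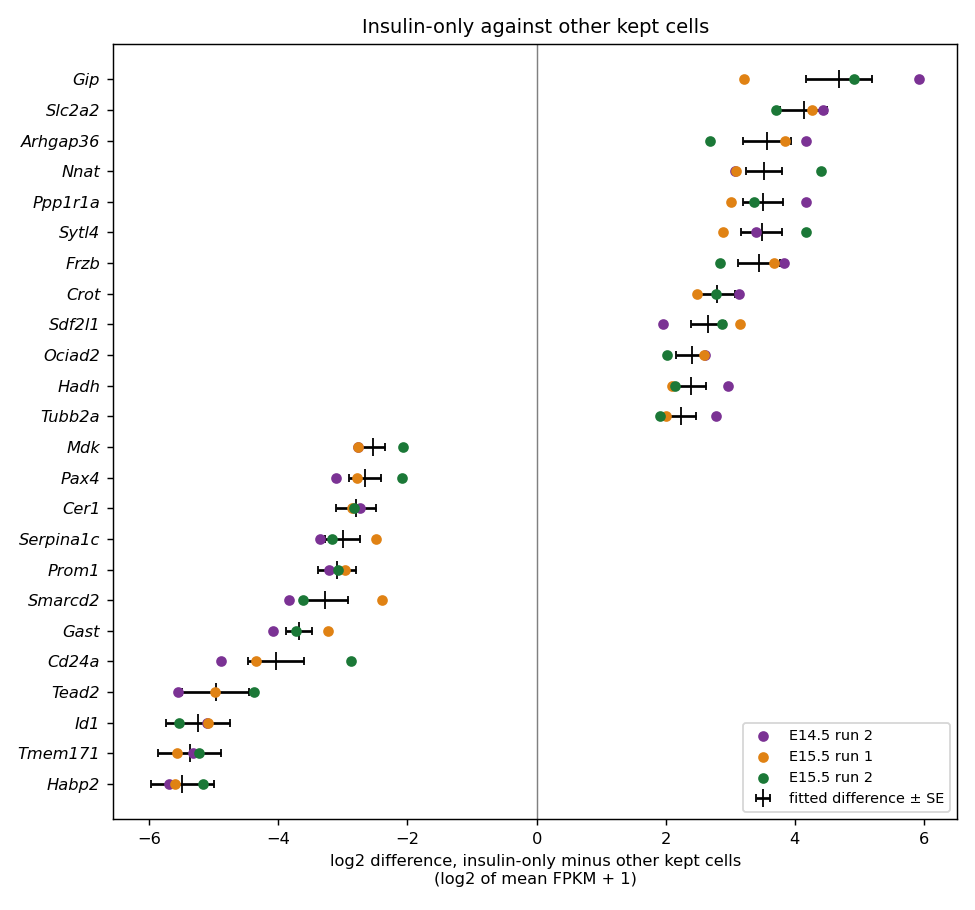
Points give the log2 difference, insulin-only minus other kept cells, in mean FPKM + 1 for each of 3 sets, and crosses the fitted difference with its SE, for the 12 higher and 12 lower named genes. Every point lies on the same side of 0 for its gene, and the difference of genes at 0 in insulin-only cells (Id1, Tmem171, Habp2) depends on the added 1.

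With 3 sets these calls were fragile. Of 26 named genes called, 12 kept the call without E14.5 run 2, 2 without E15.5 run 1 and 8 without E15.5 run 2. Gast alone kept it in every case (adjusted p 0.0136 to 0.0290), and over all genes 20 to 55 calls were made with a set left out.

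Besides Slc2a2, which passed, Iapp, Pdx1 and Nkx6-1 are much used to describe beta cells. These genes were higher in each set but did not pass with the settings used here. Iapp averaged 6796, 15544 and 13966 FPKM in insulin-only cells, against 335, 2924 and 5368 FPKM in other kept cells (log2 difference 2.71, SE 0.52, adjusted p = 0.141). Those other cells include cells with insulin and another hormone, and without them Iapp passed (4.15, adjusted p = 0.0298). It also passed at a hormone threshold of 500 FPKM (3.68, adjusted p = 0.0335) and with the mean of log2 values over cells (8.04, adjusted p = 4.5e-07). In the other settings tried it did not pass. Pdx1 averaged 48.1, 51.9 and 79.99 FPKM, against 18.7, 17.3 and 17.9 FPKM (1.65, SE 0.30, adjusted p = 0.133). Nkx6-1 differed by 1.02 (SE 0.32, adjusted p = 0.317). Neurog3 averaged 2.07, 62.96 and 42.4 FPKM, against 892, 819 and 820 FPKM (-5.37, SE 0.86, adjusted p = 0.0944). Of 26 beta cell transcription factors 22 were tested, 9 had a positive difference and 1, Pax4, was called, lower. None of the 29 tested cell cycle genes was called, all 29 had a negative difference and their median was -1.44, against -0.14 over all genes. Of the 29, 13 had an unadjusted p under 0.05, against 1970 of all 15346 genes tested. The endocrine progenitor and precursor genes ran the same way, with 19 of 19 tested genes negative, a median of -1.64 and Pax4 called.

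Glucagon-only cells are another class of hormone cell in these embryos, which also held cells with Ghrl or Sst. Against them, insulin-only cells had higher Npy, Sytl4, Gip, Nnat, Slc2a2 and Iapp and lower Gast. Only E14.5 run 2 and E15.5 run 2 held 5 cells of both classes (29 insulin-only and 15 glucagon-only cells), which leaves 1 residual degree of freedom. Of 14198 genes tested, 41 were higher (0.289%) and 40 lower (0.282%), 81 in all (0.571%). After scaling to depth the split was 42 and 17, and after rescaling each cell without hormone genes 208 and 126. Leaving out either set leaves no test.

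Npy, the gene of neuropeptide Y, was listed at 0 in all 44 glucagon-only cells of the series. In insulin-only cells it averaged 439 and 2669 FPKM in those 2 sets (adjusted p = 2.18e-07), carried by 4 of 10 and 5 of 19 cells at 10 FPKM or more, while the medians were 0. Over all sets Npy reached 10 FPKM in 11 of 51 insulin-only cells (21.6%), against 1.48% of the other kept cells. The highest insulin-only values in E14.5 run 2, E15.5 run 1 and E15.5 run 2 were 2756, 3548 and 20686 FPKM.

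Sytl4 averaged 110 and 207 FPKM in insulin-only cells, against 0.375 and 0.277 FPKM in glucagon-only cells (log2 difference 6.84, SE 1.02, adjusted p = 0.000856). Nnat averaged 2130 and 6575 FPKM, against 253 and 25.1 FPKM (5.52, SE 0.64, adjusted p = 3.52e-05). Gip averaged 471 and 567 FPKM, against 36.8 and 1.31 FPKM (5.79, SE 0.78, adjusted p = 0.000229). Iapp differed little in size, with 6796 and 13966 FPKM in insulin-only cells, against 2083 and 8221 FPKM in glucagon-only cells (1.23, SE 0.19, adjusted p = 0.000951). Slc2a2 was listed at 0 in the glucagon-only cells of E14.5 run 2 and averaged 0.510 FPKM in those of E15.5 run 2 (adjusted p = 0.0381). Pdx1 (log2 difference 4.15, adjusted p = 0.0816) did not pass.

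On the lower side, Gast averaged 36.9 and 129 FPKM in insulin-only cells, against 5385 and 9554 FPKM in glucagon-only cells (log2 difference -6.67, SE 0.32, adjusted p = 2.83e-11). Pyy, the gene of peptide YY, averaged 4595 and 26612 FPKM, against 25936 and 40986 FPKM (-1.56, SE 0.24, adjusted p = 0.00104), and lost its call after scaling to depth (-0.84, adjusted p = 0.364). Asb4 (-5.22, adjusted p = 0.00139), Trf, the gene of transferrin (-5.13, adjusted p = 0.00915), and Rgs4, a regulator of G protein signalling (-5.49, adjusted p = 0.0120), were lower as well. The calls of Calcr, Sstr2, Serpina1a and Epha7 were lost after scaling to depth, at adjusted p of 0.188, 0.169, 0.0904 and 0.150. Of 13 tested alpha cell genes 3 were called, all lower (Slc38a5, Tmem27 and Rgs4), and the list's median was -2.18, against -0.24 over all genes. The list for the endoplasmic reticulum had 0 of 35 genes called here and a median of 0.10. Of the 35, 6 had an unadjusted p under 0.05, against 1185 of all 14198 genes tested. After scaling to depth 1 of the 35 was called, 31 were positive (22 as deposited) and the median was 0.65, against 0.09 over all genes.

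Fev precursors are the class from which a hormone cell is known to arise. Of 14268 genes tested in 3 sets (41 insulin-only cells and 29 Fev precursors), 5 were higher in insulin-only cells (0.035%) and 0 lower (0%), while 1314 had an unadjusted p under 0.05. Scaling to depth left 4 higher and 0 lower, all 4 being among the first 5. G6pc2, the islet glucose-6-phosphatase, averaged 146, 437 and 320 FPKM in insulin-only cells of E14.5 run 2, E15.5 run 1 and E15.5 run 2, against 3.04, 10.9 and 7.67 FPKM in Fev precursors (log2 difference 5.20, SE 0.40, adjusted p = 0.0136). Pyy averaged 4595, 30041 and 26612 FPKM, against 1212, 3897 and 6055 FPKM (2.33, SE 0.21, adjusted p = 0.0280). Npy was listed at 0 in all 66 Fev precursors of the series and averaged 439, 343 and 2669 FPKM in insulin-only cells (adjusted p = 0.0103). These 3 genes kept their calls with any 1 set left out. Rbp4, a carrier of retinol, differed by 2.28 (adjusted p = 0.0494) and lost its call after scaling to depth (0.115) and without E15.5 run 1 (0.0583). The fifth gene was the small nucleolar RNA Snora3 (6.44), named after its values were seen. Iapp (6.53, adjusted p = 0.0978) and Slc2a2 (5.07, adjusted p = 0.149) did not pass. Leaving out 1 set gave 31 to 122 calls.

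The comparison with Neurog3 progenitors had the most calls. Of 14693 genes tested in 3 sets (41 insulin-only cells and 66 progenitors), 195 were higher (1.33%) and 129 lower (0.878%), 324 in all (2.21%). After scaling to depth 218 were higher and 269 lower, and after rescaling without hormone genes 243 and 247. The genes named below as higher or lower kept their calls after scaling to depth. All calls depended on E15.5 run 1, without which 0 genes passed and 1620 had an unadjusted p under 0.05.

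Of 9 tested islet hormones and peptides 3 were higher (Iapp, Pyy and Npy) and 1, Cck, the gene of cholecystokinin, lower. Iapp averaged 6796, 15544 and 13966 FPKM in insulin-only cells, against 52.1, 5.67 and 1.83 FPKM in Neurog3 progenitors (log2 difference 10.15, SE 0.92, adjusted p = 0.0120). Slc30a8, the zinc transporter of insulin granules, averaged 90.1, 328 and 107 FPKM, against 0.104, 0.129 and 0 FPKM (adjusted p = 0.00970). Chga, the granule protein chromogranin A, averaged 2203, 2920 and 3487 FPKM, against 103, 502 and 79.9 FPKM (4.12, SE 0.50, adjusted p = 0.0200). Pcsk1, the prohormone convertase PC1/3, averaged 273, 560 and 293 FPKM, against 36.7, 93.2 and 19.01 FPKM (3.11, SE 0.34, adjusted p = 0.0155). Of 28 tested granule and prohormone genes 14 were higher and 0 lower, with a median of 3.06 against 0.11 over all genes. Besides the 3 genes above they were Pcsk2, Cpe, Scg2, Scg3, Chgb, Ptprn, Rab3a, Rab3b, Rab27a, Snap25 and Ica1.

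Of 17 tested genes for glucose sensing and excitability 5 were higher: Slc2a2, G6pc2, Pcx, the enzyme pyruvate carboxylase, Abcc8, the sulfonylurea receptor of the ATP-sensitive potassium channel, and Glp1r, the receptor of glucagon-like peptide 1. Of 35 genes of the endoplasmic reticulum list 6 were higher (Dnajb11, Sdf2l1, Pdia6, Manf, Sec61b and Ssr4), 34 were positive and the median was 1.58. Of 22 transcription factors Pdx1 (log2 difference 3.14, adjusted p = 0.0333), Isl1 (2.53, adjusted p = 0.0237) and Meis2 (2.72, adjusted p = 0.0447) were higher, and Pax4 (-3.32, adjusted p = 0.0128) and Sox4 (-2.46, adjusted p = 0.0385) lower. Nkx6-1 differed by 0.69 and did not pass (adjusted p = 0.468). On the alpha cell list 3 of 8 tested genes were higher as well, namely Ttr, Slc38a5 and Tmem27.

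Among the lower genes were 7 of the progenitor list and 3 of the cell cycle list. The eGFP transcript averaged 0, 0 and 0.179 FPKM in insulin-only cells, against 40.9, 55.6 and 54.7 FPKM in Neurog3 progenitors (log2 difference -5.59, SE 0.57, adjusted p = 0.0138). Because eGFP reports Neurog3, the gene that chose those progenitors, this test cannot separate its difference from that choice. The eGFP values are thus a description, although eGFP stayed in the counts. Spp1, the gene of osteopontin and a duct marker, averaged 16.9, 1.86 and 19.7 FPKM, against 525, 914 and 1326 FPKM (-6.40, adjusted p = 0.0134). Of 17 tested endocrine progenitor genes 7 were lower (Hes6, Btg2, Gadd45a, Amotl2, Cbfa2t3, Sox4 and Pax4). For this list, too, the test cannot separate a difference from the choice of reference cells by Neurog3, so these calls are a description. Of 31 tested cell cycle genes 3 were lower (Mcm3, Mcm5 and Mcm6, subunits of the replicative helicase), all 31 had a negative difference and the median was -2.07. Cdk4 (-1.35, adjusted p = 0.0250) and Cdkn1a (-2.40, adjusted p = 0.0423), an inhibitor of cyclin-dependent kinases, were lower too. C1qa, named after its values were seen, was higher (4.61, adjusted p = 0.0240).

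**Figure D5:**
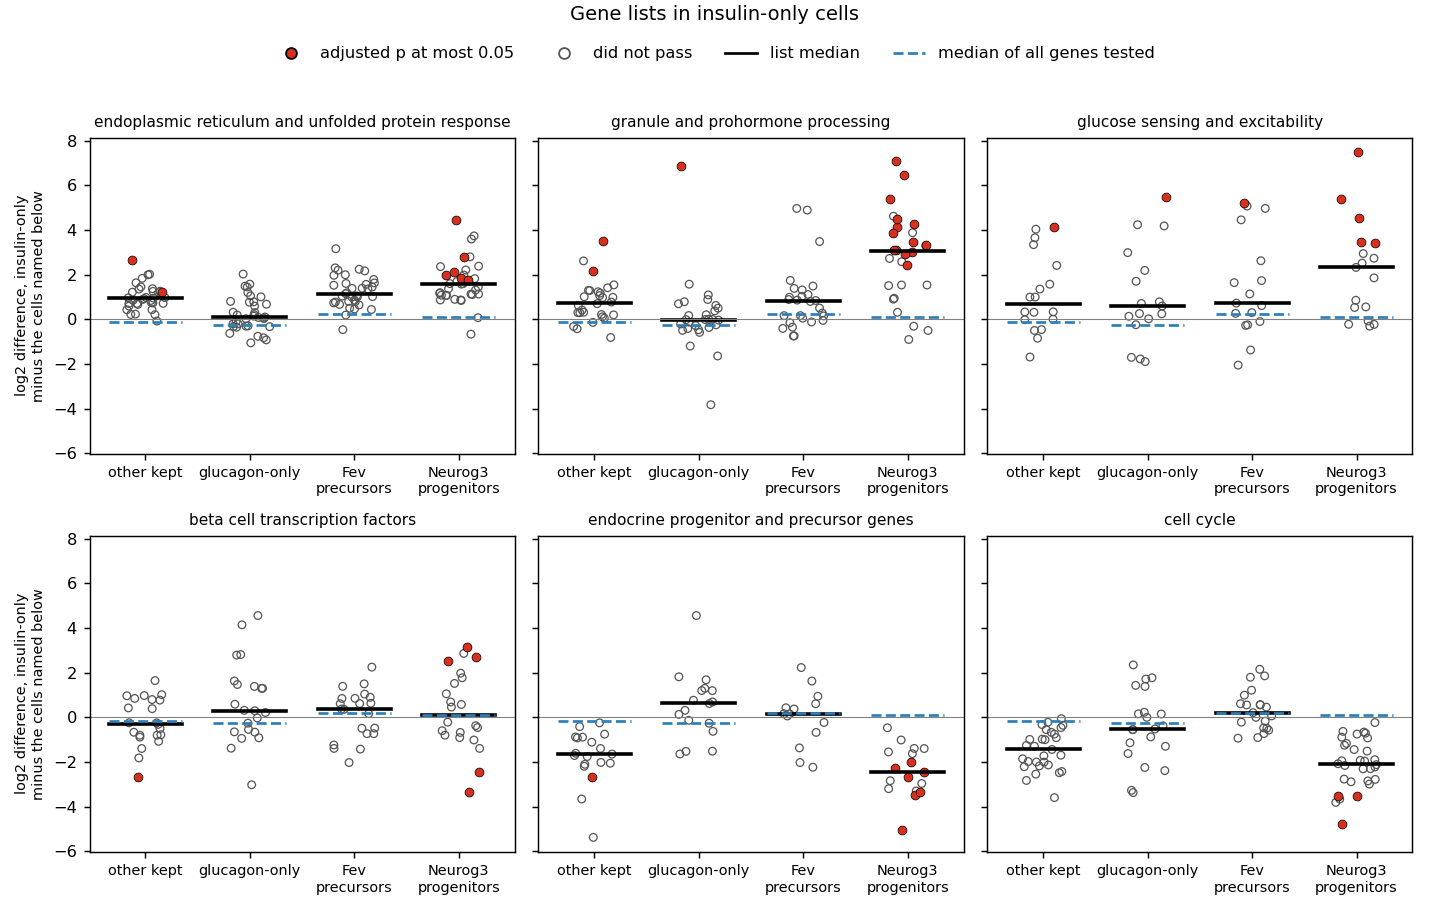
Each circle is 1 gene of a list, plotted as the log2 difference of insulin-only cells minus the cells named below the axis, filled red where the adjusted p was at most 0.05; black bars are list medians and dashed bars the median of all genes tested. The granule list stands at a median of 3.06 against Neurog3 progenitors and at -0.01 against glucagon-only cells. Against glucagon-only cells 12 of its 28 genes are positive as plotted. After scaling to depth, not plotted, 24 of 28 were positive, with a median of 0.41 against 0.09 over all genes.

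Between E15.5 and E14.5, insulin-only cells had higher mean transcript of the islet peptides Iapp, Pyy, Npy and Ppy, though few cells carried some of these means. The comparison used 2 sets a day (31 cells at E15.5 and 14 at E14.5, of which run 1 holds 4) with run as a term and 1 residual degree of freedom. Xist was detected in 3 of 4 and 10 of 10 insulin-only cells of E14.5 runs 1 and 2. Y-linked transcripts were detected in 12 of 12 and 19 of 19 of E15.5 runs 1 and 2. Day and the sex of the embryos thus cannot be told apart in this comparison. Of 13398 genes tested, 169 were higher at E15.5 (1.26%) and 19 lower (0.142%), 188 in all (1.4%). The median over all genes was 0.64, so most genes were higher at E15.5 on the deposited scale. After scaling to depth that median was 0.08, and 52 genes were higher and 11 lower, 59 of which were among the 188.

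Iapp averaged 15544 and 13966 FPKM in the E15.5 sets, against 2636 and 6796 FPKM in the E14.5 sets, runs 1 and 2 in that order (log2 difference 1.80, SE 0.25, adjusted p = 3.91e-07). Pyy averaged 30041 and 26612 FPKM at E15.5, against 850 and 4595 FPKM at E14.5 (3.84, SE 0.28, adjusted p = 4.16e-19). In E15.5 run 1 the highest cells held 143416 and 139853 FPKM of Pyy and the next 40327 FPKM, so few cells carried that mean. Npy averaged 343 and 2669 FPKM at E15.5, against 0 and 439 FPKM at E14.5 (5.51, SE 0.60, adjusted p = 5.86e-11). For Iapp and Pyy both E15.5 means lay above both E14.5 means, while for Npy the mean of E15.5 run 1 lay below that of E14.5 run 2. Npy reached 10 FPKM in only 11 of the 51 insulin-only cells of all sets. Ppy, the gene of pancreatic polypeptide, was higher as well (3.43, SE 0.49, adjusted p = 6.9e-07). Its E15.5 means leaned on single cells, at 9288 FPKM in run 1 and 4495 FPKM in run 2, with the next cells at 1315 and 599 FPKM. Of 10 tested islet peptide genes 4 were called in all. These 4 kept their calls after scaling to depth, with differences of 1.18 for Iapp, 2.91 for Pyy, 4.49 for Npy and 2.42 for Ppy (adjusted p = 0.0139, 1.15e-09, 5.22e-05 and 0.000442). Slc2a2 (1.47, adjusted p = 0.315) did not pass, and neither did Pdx1 or Nkx6-1, with differences of 1.19 and 0.37.

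Of the 35 genes of the endoplasmic reticulum list 11 were higher at E15.5 and 0 lower, and all 35 had a positive difference, with a median of 1.19 against 0.64 over all genes. Only 1 of the 11, Creld2, kept its call after scaling to depth (1.24, adjusted p = 0.0416), 29 of 35 were positive and the median was 0.49 against 0.08. Xbp1, a transcription factor of the unfolded protein response, differed by 4.06 (SE 0.82, adjusted p = 0.00140, lost at 0.0536 after scaling) and Creld2, a protein of the endoplasmic reticulum, by 1.94 (SE 0.38, adjusted p = 0.000913). Ddit3, the stress factor CHOP, averaged 56.4 and 44.96 FPKM at E15.5, against 0 and 0.507 FPKM at E14.5 (adjusted p = 0.00886), and lost its call after scaling to depth (0.0784). The others were Dnajb9, Sdf2l1, Pdia3, Pdia6, Herpud1, Manf, Ssr2 and Ssr4.

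These calls leaned on a spread estimated in large part from all genes tested together, since few sets were at hand. With any 1 set left out, which also removed the run term, 0 genes passed and 982 to 1956 had an unadjusted p under 0.05, and without the run term 3 genes passed. Whether insulin-only cells changed between the days by other amounts than the other kept cells was tested directly on the per-set difference. Of 15093 genes 0 passed (0%), 562 had an unadjusted p under 0.05, and the lowest adjusted p was 0.0569. Scaled to depth, 0 passed as well, 526 with an unadjusted p under 0.05. The differences between E15.5 and E14.5 are therefore not shown to be particular to the insulin-only cells.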

How the data were processed

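Single-cell RNA-seq of 721 sorted cells gave the authors' FPKM per gene, deposited as 1 table. Per the labels and the submitters' processing notes, reads were aligned to mm10 with TopHat2 2.0.13 and FPKM values were made with Cufflinks 2.2.0, and the authors' scale factors are 1 for every cell. No gene annotation is named in the sources used here. Cufflinks shares reads between overlapping genes, so such genes are less certain. The cells, the gene lists and the comparisons were chosen with earlier results of these data known.

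Cells were kept at 100000 fragments (the total mass in the labels) and 1500 genes at 1 FPKM, and grouped by day and run from the labels. Doublets were not called. Cells of both runs of a day were compared for repeats, and the highest correlations between runs were 0.733 (E13.5), 0.874 (E14.5) and 0.748 (E15.5), with 0 insulin-only cells in those pairs. FPKM was averaged over the cells of a set and class, a pseudocount of 1 was added and log2 taken. Genes with a mean of at least 1 FPKM were tested with limma 3.58.1 (R 4.3.3; trended spread, two-sided, Benjamini-Hochberg over all genes tested, threshold 0.05) in sets with at least 5 cells of each class, with the set as a block, or, between E15.5 and E14.5, the run. Unless stated, p-values are from that test. Fold changes are on the log2(mean FPKM + 1) scale and understate those of low genes. E14.5 run 1, with 4 insulin-only cells, entered only the comparisons of days, as 1 of their sets. Ins1, Ins2, Gcg, Ghrl and Sst, and for 2 references Fev and Neurog3, were left out of all counts, since they chose the cells.

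Named genes were up to 12 higher and 12 lower called genes against the other kept cells and up to 8 each way in the other comparisons, with the same sign in every set and the largest difference, and up to 4 called genes of each of 15 lists; predicted and small RNA genes, pseudogenes, Y-linked genes and Xist were left out. The script was tested on simulated data, where recovery depended strongly on the assumed noise between sets and was weakest for the glucagon-only and day comparisons. Alternatives changed the pseudocount, filters, cell minimum, hormone threshold, scaling, block and sets. Scaling to the depth of the cell, leaving out members with Neurog3, and the use of smaller sets without E13.5 run 1 were added after seeing the data. Promoters were matched by symbol in RefSeq's table (GRCm38.p6). Motifs were found on both strands. Isoform values were not used here, and some genes of the lists are not reported here.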

Additional observations from a re-analysis of the deposited data

How the results depend on the processing

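Counts of called genes changed with most choices, and the cause was not tested unless named. The pseudocount of 0.1 gave 118 calls against other kept cells (43 as reported), 3 against Fev precursors (5), 80 between days (188) and 1 for the difference of the classes between days (0). A pseudocount of 10 gave 0 against other kept cells (1729 at an unadjusted p under 0.05), 144 against glucagon-only cells (81), 0 against Fev precursors (1094 unadjusted) and 138 against Neurog3 progenitors (324). Without a filter there were 2 calls against other kept, 192 against glucagon-only, 1 against Fev and 58 against Neurog3 cells, and with a mean of at least 5 FPKM 130, 9 and 566 against other kept, Fev and Neurog3 cells. The mean of log2 values over cells, in which rare high cells weigh less, gave 739, 248, 1658 and 104 against other kept, Fev and Neurog3 cells and between days. Rescaling without hormone genes gave 67, 334 and 490 against other kept, glucagon-only and Neurog3 cells, and scaling to depth 487 against Neurog3 cells and 63 between days. Sets of at least 3 cells gave 5, 6, 0 (925 unadjusted) and 7 against other kept, glucagon-only, Fev and Neurog3 cells, but E13.5 run 1 moved these counts: without it they were 32, 1 and 325 against other kept, Fev and Neurog3 cells. A minimum of 10 cells gave 49 against Fev precursors and 0 between days (1238 unadjusted). Cells of at least 300000 fragments gave 9 against other kept cells, 67 between days and 1 for the difference. A hormone threshold of 50 FPKM gave 1, 0 (911 unadjusted), 3 and 2 against other kept, Fev and Neurog3 cells and for the difference; 500 FPKM gave 15 and 2 against glucagon-only and Fev cells, 118 between days and 2 for the difference. Without Ppy cells 24 were called against other kept cells, and without members that held Neurog3 37 against glucagon-only cells and 63 between days. Without the replicate block the calls were 68, 10, 5 and 331 against other kept, glucagon-only, Fev and Neurog3 cells, and 3 between days without the run. With 1 set left out, calls ranged from 20 to 55 against other kept cells, 31 to 122 against Fev cells and 0 to 234 against Neurog3 cells, and were 0 to 0 between days and for the difference.

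Days as units and each run alone gave values with no test. Directions turned for genes that had not passed. The difference of Ppy from other kept cells, -0.47, was 0.88 with the mean of log2 values, 1.52 in run 1 alone and, with 1 set left out, -1.46 to 0.64, the highest without E14.5 run 2. With a hormone threshold of 50 FPKM Iapp was -0.096, while it was positive in every other setting and passed in those given above. Among the other values of named genes against other kept cells, 842 kept direction and test outcome, called or not, or direction alone where no test was run. Another 251 lost the call, 27 gained it and 35 moved in size. Depth limits low genes most, since a shallow cell yields few fragments of them, and the number of sets, 2 to 4 per comparison, limits every test.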

Other observations

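Gene lists not yet described showed few calls against the other kept cells of the same sets. Of all 15346 genes tested there, 1970 had an unadjusted p under 0.05. Of 12 genes for serotonin synthesis and handling 6 were tested and 0 called (1 at an unadjusted p under 0.05), with a median log2 difference of -0.84, against -0.14 over all genes tested. Tph1 and Tph2, the enzymes of serotonin synthesis that adult mouse beta cells use in pregnancy, reached 10 FPKM in 0 and 1 of 51 insulin-only cells. Of 12 genes kept low in adult beta cells 8 were tested and 0 called (4 unadjusted), with a median of -1.12. Of 8 delta and epsilon cell genes 6 were tested and 0 called (4 unadjusted; median -2.01), and of 14 alpha cell genes 11 were tested and 0 called (6 unadjusted; median -0.52). None of 10 tested cyclins D and cyclin-dependent kinase inhibitors (4 unadjusted; median -0.67), 13 immediate-early genes (6 unadjusted; median -1.21) or 21 adhesion and motility genes (6 unadjusted; median -0.47) was called. Of 9 tested islet hormones and peptides 1, Gast, was called.

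Ucn3, a peptide of mature mouse beta cells, reached 10 FPKM in 8 of 51 insulin-only cells. Mki67, a marker of dividing cells, did so in 0 of 51 and Top2a in 2. Pou3f4, an alpha cell factor in the mouse, reached 10 FPKM in 12 cells, Irx2 in 1 and Irx1 in 0. Pancreatic polypeptide transcript, Ppy, which the rule did not use, reached 10 FPKM in 14 cells and 100 FPKM in 9.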
